A study of Mus musculus with 17 samples.

Results

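Migratory dendritic cells were taken from 5 single-cell libraries of mouse pancreatic tumours by their raw counts of unique molecular identifiers (UMIs, 1 per captured transcript). Barcodes with fewer than 500 genes or more than 10% mitochondrial UMIs were left out, and a barcode was counted as a migratory dendritic cell with at least 2 UMIs of Ccr7, at least 2 of Fscn1, none of Cd3d, Cd3e, Cd3g or Cd79a, and under 20 of C1qa, C1qb and C1qc together. That gave 739 cells among 18546 kept barcodes, of 23150 deposited barcodes. Because the cells were chosen by the counts of these genes, the levels of these genes are a description and not a result.

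The series asked what PD-L1, the ligand of the inhibitory receptor PD-1 encoded by Cd274, does on T cells. Its design text describes CD45+ leukocytes sorted from tumours 3 weeks after orthotopic implantation, while the sample labels speak of T cells from tumours, and these libraries hold macrophages and dendritic cells as well. There was 1 library for each of 5 genotypes: PDL1 floxed/floxed-CD4Cre (both Cd274 alleles floxed, Cre recombinase under the Cd4 promoter), PDL1 floxed/WT-CD4Cre (1 floxed allele with that Cre), PDL1 floxed/floxed without Cre, CD4Cre without a floxed allele, and WT. The labels give no drug treatment for these libraries and no number of animals behind a library. Lists of 5 values run over the libraries in the order in which the genotypes are named here. The libraries gave 212, 273, 29, 215 and 10 migratory cells, so the CD4Cre libraries hold nearly all of them.

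Conventional dendritic cells take up antigen in tissue as immature cells. After maturation they shut down uptake, switch on the chemokine receptor Ccr7, bundle their actin with fascin (Fscn1) and follow Ccr7 ligands towards the T cell zones of draining lymph nodes, where they present antigen. In tumours, mature dendritic cells of this kind carry molecules that activate T cells together with molecules that restrain them, PD-L1 among them.

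Several features of the libraries bear on all values. The kept barcodes held 62350324, 58613309, 36173422, 40159473 and 38562172 UMIs. The 3 CD4Cre libraries list 31053 features and the PDL1 floxed/floxed and WT libraries 28692, so the file version coincides with the presence of Cre, and genotype and processing cannot be told apart between these sets. Macrophage markers summed to 124 to 282 CPM (UMIs per 1000000) in migratory cells of the 3 CD4Cre libraries, against 1493 and 1996 CPM in those of PDL1 floxed/floxed and WT. Neutrophil markers summed to 15.5 to 69.5 CPM in the CD4Cre libraries against 551 and 907 CPM, and the part of either in the differences between libraries was not tested. The CD4Cre libraries also share barcodes: 1127, 817 and 944 kept barcodes stand in both libraries of a pair, against 0 to 12 for the other pairs, and 508, 833 and 722 kept barcodes in PDL1 floxed/floxed-CD4Cre, PDL1 floxed/WT-CD4Cre and CD4Cre are shallow copies of a barcode with at least 10 times the UMIs in another library. Of the 739 migratory cells, 50 (6.77%) have a shared barcode and 2 are such shallow copies.

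The counts that chose the cells lay mostly well above their limits. The median cell had 25 UMIs of Ccr7 and 20 of Fscn1 among 11797 UMIs, and 1 UMI of the C1q genes, which encode a complement component typical of macrophages. C1q medians were 1 in each of the CD4Cre libraries, against 5 in PDL1 floxed/floxed and 5.5 in WT. The 3 other label markers followed: Ccl22, a chemokine that attracts Ccr4-bearing T cells, stood at 1948, 1656, 2638, 1317 and 1225 CPM in migratory cells, Cacnb3, a calcium channel subunit, at 873, 853, 492, 864 and 617 CPM, and Tbc1d4, a regulator of vesicle traffic, at 1313, 1478, 615, 1675 and 417 CPM. In the 37 cells with exactly 2 UMIs of either gate gene the summed level of Ccl22 was 1009 CPM and of Cacnb3 739 CPM. In the 40 cells just outside with 1 Ccr7 UMI they were 1195 and 580 CPM, and in the 32 with 1 Fscn1 UMI 2068 and 573 CPM. Some markers of other cells were low: T cell markers summed to 4.82 to 28.3 CPM in migratory cells, B cell markers to 7.92 to 145 CPM and epithelial markers to 18 to 160 CPM. Siglech of plasmacytoid cells, Ncr1 and Klrb1c of NK cells, Il22 of innate lymphoid cells and Cdh5 of endothelium had no UMI. Macrophage and neutrophil markers, given above, were not low in PDL1 floxed/floxed and WT.

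Migratory cells made up 5.36% (95% binomial interval 4.68 to 6.11), 7.21% (6.40 to 8.08), 1.01% (0.680 to 1.45), 4.23% (3.70 to 4.83) and 0.349% (0.167 to 0.640) of the kept barcodes. Intervals here cover counting error only. The intervals of the 3 CD4Cre libraries lie above those of PDL1 floxed/floxed and WT, a split that coincides with the file version, and the difference was not tested. Without shared barcodes the shares were 7.81, 11.4, 1.02, 5.11 and 0.350%. Among the 3 classes of conventional dendritic cells counted here (migratory, cDC2 and cDC1), the migratory share was 75.2, 85.8, 17.7, 86.7 and 12.3%.

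**Figure D1:**
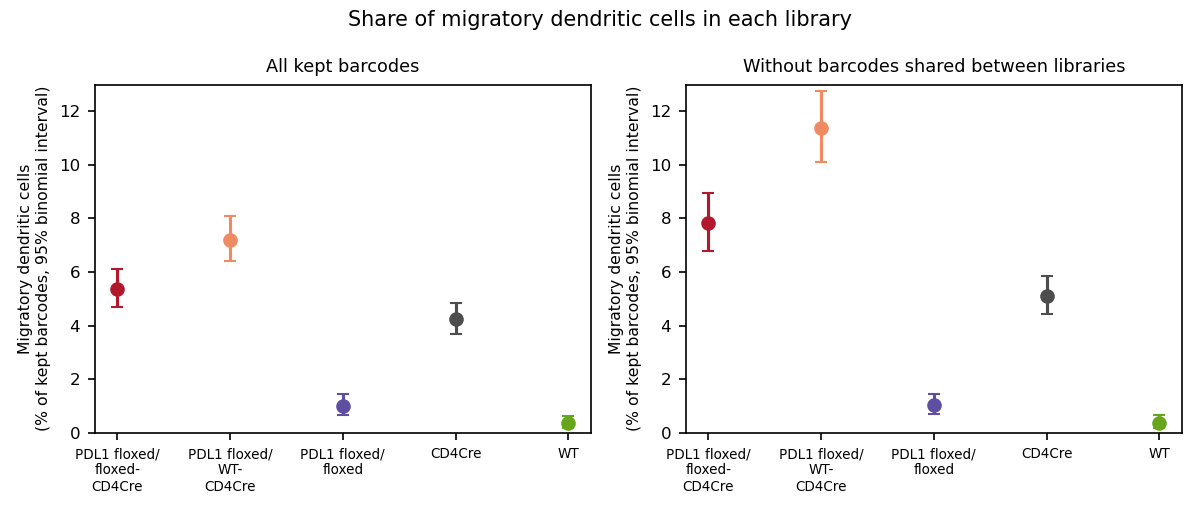
Share of migratory dendritic cells among kept barcodes (%, with exact 95% binomial intervals for counting error) in each of the 5 libraries, left with all kept barcodes and right without barcodes shared between libraries. The PDL1 floxed/floxed-CD4Cre, PDL1 floxed/WT-CD4Cre and CD4Cre libraries sit between 4.23 and 7.21% on the left, and the PDL1 floxed/floxed and WT libraries at 1.01 and 0.349%.

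Cd274 itself was present in migratory cells of every library, at 404 CPM in PDL1 floxed/floxed-CD4Cre, 457 in PDL1 floxed/WT-CD4Cre, 160 in PDL1 floxed/floxed, 322 in CD4Cre and 163 in WT. The order of levels follows the 2 sets of libraries: the Poisson intervals of the CD4Cre libraries (381 to 428, 435 to 479 and 300 to 346 CPM) lie above those of PDL1 floxed/floxed (122 to 205) and WT (96.8 to 258). T cells, in which Cd4-driven Cre acts, had 58.1, 49.7, 14.6, 69.7 and 9.69 CPM of Cd274 in the same order. In droplets some UMIs come from free RNA, and their part in the T cell counts was not tested. The libraries may tag a part of the transcript outside the floxed exons, so these counts check neither the deletion nor the labels.

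The comparator classes came from the same libraries. Cells with at least 2 UMIs of Cd209a and no Clec9a or Xcr1 were taken as cDC2, the conventional dendritic cells that mainly prime CD4 T cells (47, 25, 61, 20 and 30 cells), and cells with at least 2 UMIs of Clec9a and Xcr1 together and no Cd209a as cDC1, which specialise in presenting dead-cell antigen to CD8 T cells (23, 20, 74, 13 and 41 cells). The cDC2 class carried monocyte markers, which summed to 128 to 273 CPM in migratory cells, 1159 to 3300 CPM in cDC2 and 445 to 833 CPM in cDC1, and their part in what fell against cDC2 was not tested. Both gates asked for at least 10 UMIs of H2-Ab1 and Cd74 together, which the gate of migratory cells did not. UMIs were summed per library and class, and edgeR's quasi-likelihood test with the library as a block compared the 5 sums of each class, with Benjamini-Hochberg adjustment over 6124 genes. Against cDC2, 1532 genes (25%) were higher and 1523 (24.9%) lower in migratory cells, together 49.9% of the genes tested. Against cDC1, 1425 (23.3%) were higher and 1494 (24.4%) lower, together 47.7%. The 5 libraries of migratory cells did not overlap those of cDC2 for 21.8% of genes, nor those of cDC1 for 20.3%. With the 3 CD4Cre libraries alone, 1575 genes were higher and 1472 lower against cDC2, and 1314 and 1266 against cDC1. A setting with comparators of matched depth left 7, 13, 27, 7 and 5 cDC1 cells. Sums of fewer than 10 cells were left out, so there only PDL1 floxed/WT-CD4Cre and PDL1 floxed/floxed kept a cDC1 sum. Changes at matched depth against cDC1 thus cannot be told apart from the loss of libraries. Nothing shows that libraries came from separate animals, so the p-values measure the spread between these libraries, and counts of a list are to be read against the shares given here.

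Genes of the NF-kB pathway, the signalling route that drives dendritic cell maturation, were higher in migratory cells almost throughout the list. Of 24 listed genes 23 were tested, and 20 rose and none fell against cDC2, while 22 rose and none fell against cDC1. The median log2 difference of the list was 1.81 against cDC2 and 2.07 against cDC1, beside 0.01 and -0.01 over all genes tested. Relb, Traf1 and Birc3 also stand in the list of the maturation programme, whose direction is not independent of how the cells were chosen. Relb, the partner subunit of the alternative NF-kB pathway, had 494, 419, 471, 612 and 699 CPM in migratory cells, 53.1, 39.5, 75.1, 66.6 and 66.5 CPM in cDC2 and 67.2, 66.3, 20.3, 0 and 24.1 CPM in cDC1. The migratory values lay above both other classes in all 5 libraries, by 3.31 on the log2 scale against cDC2 (SE 0.38, adjusted p = 1.84e-05) and 3.87 against cDC1 (SE 0.41, adjusted p = 1.1e-05). Map3k14, the kinase that starts the alternative pathway, had 380, 371, 216, 354 and 236 CPM in migratory cells against 49.3, 69.8, 51.9, 104 and 30.5 CPM in cDC2 (log2 difference 2.58, SE 0.23, adjusted p = 3.94e-08). Rel, the c-Rel subunit, had 940, 902, 353, 938 and 263 CPM in migratory cells against 156, 167, 64.2, 250 and 38.8 CPM in cDC2 (log2 difference 2.60, SE 0.18, adjusted p = 1.17e-09). These levels did not overlap between the classes either, and the Rel levels of both classes were lowest in PDL1 floxed/floxed and WT. Inhibitors moved the same way: Nfkbib, which holds NF-kB in the cytoplasm, rose by 2.30 on the log2 scale against cDC2 (SE 0.18, adjusted p = 3.6e-09), and Tnip3, a feedback inhibitor, by 0.91 against cDC2 (SE 0.24, adjusted p = 0.00504) and 5.19 against cDC1 (SE 0.40, adjusted p = 1.63e-08). Tnfaip2 passed in neither comparison (log2 difference 1.14 against cDC2 and -0.47 against cDC1), and Nfkb1 and Nfkbiz did not pass against cDC2.

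Because NF-kB genes moved together, the promoters of 6 of the lists were searched for a simplified NF-kB-like motif (GGG, any 2 bases, TTTCC) on both strands. The search covered the 250 bases before each gene's start (RefSeq, GRCm38.p6). The motif was found in 6 of the 20 NF-kB genes with a promoter in the table (Bcl2l1, Nfkb2, Nfkbia, Rel, Tnfaip3 and Traf3), 30% against 1.65% of all 27025 genes with a promoter. It was in 1 of 20 genes of the maturation programme (Eno2), 0 of 15 regulatory molecules, 2 of 9 chemokines (Ccl9 and Cxcl2), 1 of 16 MHC class I presentation genes (B2m) and 0 of 10 MHC class II presentation genes. A match is a description of letters and not a binding site. The sequences shown are those of 4 NF-kB genes that were higher in migratory cells and of B2m, each in the direction of its gene with up to 20 bases on either side, and capitals mark the motif or its reverse complement:
Nfkb2 (chr19:46305685-46305734, + strand): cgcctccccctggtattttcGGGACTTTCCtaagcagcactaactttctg
Nfkbia (chr12:55492648-55492696, - strand): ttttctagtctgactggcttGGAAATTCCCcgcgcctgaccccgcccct
Rel (chr11:23771031-23771080, - strand): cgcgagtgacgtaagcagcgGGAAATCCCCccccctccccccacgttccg
Bcl2l1 (chr2:152830906-152830955, - strand): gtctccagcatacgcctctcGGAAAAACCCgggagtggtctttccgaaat
B2m (chr2:122147541-122147590, + strand): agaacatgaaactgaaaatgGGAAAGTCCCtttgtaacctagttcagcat
Nfkb2, the p100 precursor of the alternative pathway, was at 238, 199, 201, 211 and 254 CPM in migratory cells and at 55.7, 58.1, 49.2, 95.8 and 58.2 CPM in cDC2 (log2 difference 2.03, SE 0.22, adjusted p = 2.2e-07). Nfkbia, the inhibitor that NF-kB itself switches on, was at 417, 790, 1660, 501 and 835 CPM in migratory cells and at 98.7, 123, 841, 333 and 313 CPM in cDC2, where the ranges overlap (log2 difference 1.61, SE 0.40, adjusted p = 0.00698). Bcl2l1, the survival factor Bcl-xL, was at 48.2, 54.9, 25.7, 38.5 and 36.3 CPM in migratory cells and at 10.1, 23.3, 9.56, 20.8 and 11.1 CPM in cDC2, with no overlap (log2 difference 1.81, SE 0.32, adjusted p = 9.73e-05).

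Transcription factors of dendritic cells were more often higher than lower in migratory cells. Of 25 listed 24 were tested, with 14 higher and 6 lower against cDC2 and 15 higher and 5 lower against cDC1 (3 lower without WT). Irf8, which specifies cDC1, stood between the classes: 818, 1269, 872, 611 and 463 CPM in migratory cells, 68.3, 153, 97.0, 225 and 33.3 CPM in cDC2 and 2025, 2695, 2066, 1417 and 2009 CPM in cDC1. It was thus higher than in cDC2 by 3.1 on the log2 scale (SE 0.35, adjusted p = 2.09e-05) and fell by 1.41 against cDC1 (SE 0.31, adjusted p = 0.00317), with no overlap in either case. Batf3, the partner of Irf8 in cDC1, was at 369, 354, 275, 428 and 236 CPM in migratory cells against 115, 105, 146, 79.1 and 136 CPM in cDC2 (log2 difference 1.74, SE 0.22, adjusted p = 3.08e-06). Against cDC1 its ranges overlapped and the log2 difference was 0.67 (SE 0.21, adjusted p = 0.014), which ended without the CD4Cre library (adjusted p = 0.0709). Tlr3, a sensor of double-stranded RNA and a cDC1 marker, fell by 7.17 on the log2 scale against cDC1 (SE 0.32, adjusted p = 5.05e-12). Of the 9 cDC1 markers tested, without the gate genes Clec9a and Xcr1, 8 fell and 1 (Batf3) rose against cDC1. Of the 7 cDC2 markers tested, without the gate gene Cd209a, 5 fell and none rose against cDC2. The comparators were gated by other markers of the same lineages, so these directions are in part set by the choice of cells.

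Stat4, which relays interleukin-12 signals, was at 589, 787, 208, 679 and 172 CPM in migratory cells, 50.6, 39.5, 9.56, 45.8 and 8.32 CPM in cDC2 and 83.1, 5.76, 3.50, 14.5 and 2.67 CPM in cDC1. It rose by 4.34 against cDC2 (SE 0.41, adjusted p = 2.21e-06) and 4.64 against cDC1 (SE 0.43, adjusted p = 2.14e-06) on the log2 scale, and its 2 lowest migratory values were those of PDL1 floxed/floxed and WT. Stat3, which carries interleukin-10 and interleukin-6 signals, rose by 2.04 against cDC2 (SE 0.17, adjusted p = 8.58e-09) and 2.60 against cDC1 (SE 0.18, adjusted p = 8.14e-10). Id2, a repressor needed for conventional dendritic cells, rose by 2.48 against cDC2 (SE 0.17, adjusted p = 9.82e-10) and 0.74 against cDC1 (SE 0.16, adjusted p = 0.000949). Ikzf1, the lymphoid and myeloid factor Ikaros, fell by 1.85 against cDC2 (SE 0.19, adjusted p = 1.59e-07). Its fall by 0.66 against cDC1 (adjusted p = 0.0183) ended without the PDL1 floxed/floxed library (adjusted p = 0.0672), without CD4Cre (0.0507) or without WT (0.0569).

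The list of the maturation programme holds genes known to accompany Ccr7, so its direction is not independent of how the cells were chosen. Of 28 listed genes, 3 are label markers and 23 were tested, and 22 rose and none fell in either comparison, with a median log2 difference of 4.63 against cDC2 and 3.98 against cDC1. Samsn1, a signalling adaptor, was at 1303, 1459, 993, 1630 and 926 CPM in migratory cells, 59.4, 62.8, 43.7, 75 and 41.6 CPM in cDC2 and 85.0, 28.8, 15.4, 7.27 and 24.1 CPM in cDC1 (log2 differences 4.70 and 5.25). Cd200, which binds an inhibitory receptor of myeloid cells, was at 411, 455, 327, 426 and 309 CPM in migratory cells, 0 to 6.98 CPM in cDC2 and 20.2 to 65.4 CPM in cDC1 (log2 differences 7.25, SE 0.40, and 3.42, SE 0.27). Neither gene's levels overlapped between migratory cells and the other classes. H2-M2, a class I-like gene, was at 47.5, 24.9, 97.8, 41.1 and 299 CPM in migratory cells against 0 to 2.77 CPM in cDC2 and 0 to 1.34 CPM in cDC1. The exception of the list was Ccl17, described with the chemokines.

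Chemokines formed no common direction. Of 14 listed 10 were tested, with 3 higher and 3 lower against cDC2 and 4 higher and 1 lower against cDC1. Ccl5, which attracts T cells, was at 5313, 5320, 5824, 5763 and 6515 CPM in migratory cells, 44.3, 27.9, 234, 25 and 58.2 CPM in cDC2 and 750, 20.2, 77.6, 7.27 and 41.4 CPM in cDC1. It rose by 6.68 against cDC2 (SE 1.04, adjusted p = 0.000667) and 5.90 against cDC1 (SE 1.04, adjusted p = 0.00153) on the log2 scale. T cells, which also make Ccl5, had 2823, 2209, 4144, 4260 and 4619 CPM, below the migratory cells in every library. In WT 60.0% of the Ccl5 UMIs came from 1 of the 10 cells. Without that cell the WT level was 2875 CPM, below the 4619 CPM of WT T cells. Thinned to 3000 UMIs a cell and pooled over libraries, 92.4% of 698 migratory cells held a Ccl5 UMI, against 12.9% of cDC2, 16.9% of cDC1 and 72.1% of T cells. The classes differ in their mix of libraries. By library the shares were 91.1, 94.5, 89.7, 92.1 and 80% of migratory cells and 60.9, 72.6, 73.7, 62.2 and 74.2% of T cells. They were 8.70, 4.55, 24.6, 5.26 and 6.67% of cDC2 and 9.09, 5.26, 27, 0 and 12.2% of cDC1.

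Cxcl16, a membrane-bound chemokine that draws Cxcr6-bearing T cells, was at 718, 675, 824, 770 and 1116 CPM in migratory cells, 67.0, 97.7, 98.3, 175 and 91.5 CPM in cDC2 and 338, 271, 231, 334 and 317 CPM in cDC1. All 5 migratory values stood above both other classes (log2 difference 3.17, SE 0.18, adjusted p = 1.21e-10 against cDC2 and 1.44, SE 0.17, adjusted p = 9.68e-07 against cDC1). Ccl17, a Ccr4 ligand like Ccl22, was at 636, 614, 4424, 418 and 1860 CPM in migratory cells, 80.9, 156, 1370, 983 and 49.9 CPM in cDC2 and 340, 499, 440, 240 and 643 CPM in cDC1. The CD4Cre library had more in cDC2 than in migratory cells, and the log2 differences of 1.90 (SE 0.88, adjusted p = 0.109) and 1.26 (SE 0.82, adjusted p = 0.243) did not pass. Against cDC2 Ccl17 passed without the CD4Cre library (2.75, adjusted p = 0.0282). Ccl9, a myeloid chemokine, was at 26.2, 15, 25.7, 19.1 and 45.4 CPM in migratory cells against 512, 351, 285, 187 and 116 CPM in cDC2 (log2 difference -3.64, SE 0.28, adjusted p = 1.56e-08). Cxcl2, which attracts neutrophils, was at 11, 24.6, 435, 98.7 and 735 CPM in migratory cells and 1.26, 6.98, 414, 12.5 and 88.7 CPM in cDC2, high where neutrophil markers were high, and in WT 1 cell held 90.1% of its UMIs. Its log2 difference of 1.71 (adjusted p = 0.02) was 1.68 without PDL1 floxed/floxed-CD4Cre (adjusted p = 0.0596), 1.65 without PDL1 floxed/WT-CD4Cre (0.0599) and 1.49 without CD4Cre (0.0790), which no longer passed. Against cDC1 Ccl9 rose by 1.40 (adjusted p = 0.0157), and without PDL1 floxed/floxed the difference was 1.42 but did not pass (adjusted p = 0.0669). Cxcl9 fell by 2.82 against cDC1 (adjusted p = 0.0189), and the differences of -2.92 without PDL1 floxed/WT-CD4Cre (adjusted p = 0.0846) and -2.90 without PDL1 floxed/floxed (0.0546) did not pass.

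Chemoattractant receptors went both ways, with Ccr2 strongly lower. Of 14 listed chemoattractant receptors 7 were tested, with 1 higher and 4 lower against cDC2 and 2 higher and 3 lower against cDC1. Ccr2, the receptor of monocyte chemoattractants, was at 40.3, 2.18, 10.3, 16.1 and 9.07 CPM in migratory cells, 1240, 772, 240, 670 and 105 CPM in cDC2 and 125, 150, 32.2, 138 and 50.8 CPM in cDC1. It fell by 5.32 against cDC2 (SE 0.60, adjusted p = 4.24e-05), where the classes did not overlap, and by 3.06 against cDC1 (SE 0.63, adjusted p = 0.00291), where they did. Ccrl2, a receptor that binds chemerin without signalling, rose in both comparisons (log2 differences 1.70, adjusted p = 0.00525, and 2.15, adjusted p = 0.00261), with overlapping ranges. Gpr183, which steers dendritic cells along oxysterol gradients, was at 92.6, 87.9, 116, 177 and 45.4 CPM in migratory cells and 19.8, 63.4, 17.5, 14.5 and 14.7 CPM in cDC1 (log2 difference 1.91, SE 0.33, adjusted p = 0.000156), and did not pass against cDC2 (0.48, adjusted p = 0.159). In the 3 CD4Cre libraries alone the list had 3 higher and 4 lower of 9 against cDC2 and 4 higher and 4 lower of 9 against cDC1, and without PDL1 floxed/WT-CD4Cre 3 and 4 of 9 were higher in the 2 comparisons.

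**Figure D2:**
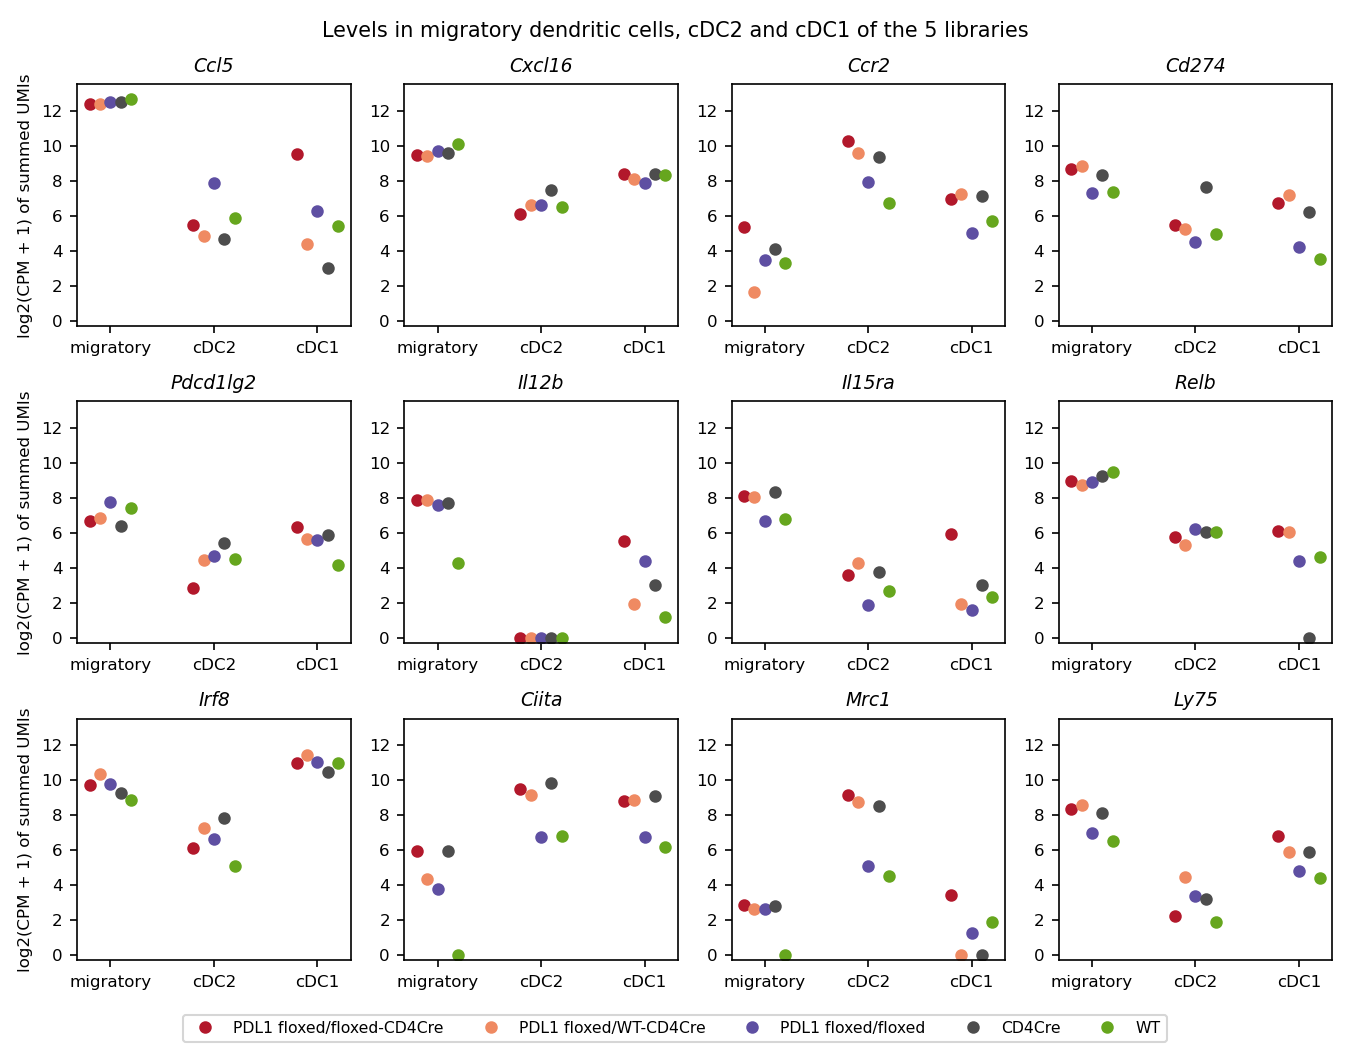
Levels of 12 genes, as log2(CPM + 1) of UMIs summed per library, in migratory dendritic cells, cDC2 and cDC1 (left to right), with 1 point per library coloured by genotype. Migratory cells stand above both other classes for Ccl5, Cxcl16, Pdcd1lg2, Il15ra and Relb, between them for Irf8, and below both for Ciita in every library.

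Genes of the costimulation list, which holds receptors such as Cd40 as well as ligands such as Cd86, were mostly higher. The ligand genes Icosl and Tnfsf9 did not pass against cDC2. Of 14 listed costimulatory genes 9 were tested, with 6 higher and 1 lower against cDC2 and 7 higher and 1 lower against cDC1. Cd40, through which helper T cells license dendritic cells, was at 169, 157, 172, 78.8 and 109 CPM in migratory cells, 53.1, 41.9, 49.2, 45.8 and 16.6 CPM in cDC2 and 33.6, 80.7, 14.7, 14.5 and 28.1 CPM in cDC1 (log2 differences 1.89, SE 0.30, adjusted p = 8.14e-05, and 2.13, SE 0.32, adjusted p = 5.88e-05). Its ranges did not overlap with cDC2 and did with cDC1. Tnfrsf9, the receptor 4-1BB, was at 247, 420, 517, 181 and 472 CPM in migratory cells, 0, 2.33, 15, 12.5 and 11.1 CPM in cDC2 and 19.8, 5.76, 28.7, 21.8 and 5.35 CPM in cDC1 (log2 differences 5.87, SE 0.46, and 4.59, SE 0.41). Tnfrsf4, the receptor OX40, was at 102, 103, 224, 136 and 336 CPM in migratory cells against 0 to 2.77 CPM in cDC2 and 0 to 15.8 CPM in cDC1 (log2 differences 7.18, SE 0.68, and 5.82, SE 0.59). Both are receptors better known on T cells, and neither overlapped between migratory cells and the other classes. Cd86, a ligand of CD28, was at 138, 285, 304, 105 and 136 CPM in migratory cells and 156, 150, 152, 131 and 158 CPM in cDC1. It passed against cDC2 (log2 difference 1.67, adjusted p = 4.11e-06) but not against cDC1 (0.32, adjusted p = 0.216). At matched depth it passed against cDC1 (0.94, adjusted p = 0.00646), with cDC1 sums in PDL1 floxed/WT-CD4Cre and PDL1 floxed/floxed only. Over all 5 libraries its differences from cDC1 in log2(CPM + 1) were -0.17, 0.92, 0.99, -0.31 and -0.21. Cd48 was the gene that fell in both.

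Listed regulatory molecules went both ways, and not all of them act on T cells, Socs2 and Fas among them. Of 20 listed regulatory molecules 15 were tested, with 10 higher and 5 lower against cDC2 and 8 higher and 4 lower against cDC1. Cd274 was at 43, 37.2, 21.9, 200 and 30.5 CPM in cDC2, so that the CD4Cre value of cDC2 overlaps the migratory range, and at 105, 147, 17.5, 72.7 and 10.7 CPM in cDC1, with no overlap. The log2 difference of Cd274 was 2.65 against cDC2 (SE 0.49, adjusted p = 0.00112) and 2.29 against cDC1 (SE 0.46, adjusted p = 0.00221), the second lost when cDC1 of matched depth were used (1.95, adjusted p = 0.0750). Thinned to 3000 UMIs and pooled over libraries, 63.3% of migratory cells, 10.7% of cDC2, 9.04% of cDC1 and 6.52% of T cells held a Cd274 UMI. Without thinning these were 89.6, 30.1, 26.9 and 13.3%, at median depths of 11797, 12508, 18631 and 7176 UMIs. The classes differ in their mix of libraries, so pooled shares also carry differences between libraries. By library the thinned shares were 67.8, 68.6, 34.5, 57.4 and 40% of migratory cells and 6.52, 18.2, 6.56, 26.3 and 10% of cDC2. They were 22.7, 15.8, 4.05, 20 and 4.88% of cDC1 and 12.5, 19.4, 5.25, 14.3 and 3.09% of T cells.

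Pdcd1lg2, which encodes the other PD-1 ligand PD-L2, was at 103, 116, 216, 84.3 and 172 CPM in migratory cells, 6.32, 20.9, 24.6, 41.6 and 22.2 CPM in cDC2 and 81.1, 49, 46.8, 58.1 and 17.4 CPM in cDC1. Unlike Cd274 its 2 highest migratory levels were in PDL1 floxed/floxed and WT. It rose by 2.85 against cDC2 (SE 0.45, adjusted p = 0.000166). The rise of 1.43 against cDC1 (SE 0.39, adjusted p = 0.00921) ended without PDL1 floxed/floxed (adjusted p = 0.0699) and in the 3 CD4Cre libraries alone (0.164). Il4i1, an enzyme that breaks down aromatic amino acids and restrains T cells, was at 380, 213, 628, 473 and 826 CPM in migratory cells, 44.3, 51.2, 41, 45.8 and 16.6 CPM in cDC2 and 39.6, 8.65, 2.80, 0 and 2.67 CPM in cDC1 (log2 differences 3.73, SE 0.55, and 5.62, SE 0.68). Socs2, a brake on cytokine signalling, rose by 4.67 against cDC2 (SE 0.39, adjusted p = 5.71e-07) and 5.41 against cDC1 (SE 0.43, adjusted p = 4.4e-07). Fas, the death receptor, rose by 4.16 (SE 0.44) and 4.02 (SE 0.45). Checkpoint genes of tissue myeloid cells were among those lower: Vsir, which encodes VISTA, fell by 2.75 against cDC2 (SE 0.26, adjusted p = 4.38e-08), Lgals9, which encodes galectin-9, by 2.78 (SE 0.25, adjusted p = 3.05e-08), and Havcr2, which encodes TIM-3, by 2.66 against cDC2 and 4.92 against cDC1 (SE 0.32, adjusted p = 5.39e-10). Tgfb1 fell by 1.35 against cDC2 and 1.36 against cDC1 (SE 0.17 each).

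Cytokine genes were sparse, and 7 of 15 listed were tested, with 3 higher and 1 lower in both comparisons. Il12b, the p40 chain shared by interleukin-12 and interleukin-23, was at 238, 231, 190, 211 and 18.1 CPM in migratory cells. It had no UMI in cDC2 of any library and was at 45.5, 2.88, 20.3, 7.27 and 1.34 CPM in cDC1. The WT value rests on 2 UMIs in 10 cells (95% Poisson interval 2.20 to 65.6 CPM), and the other 4 libraries lie within 190 to 238 CPM. Thinned to 3000 UMIs and pooled over libraries of unlike class mix, 21.8% of migratory cells held an Il12b UMI. Of cDC2 0%, of cDC1 2.41% and of T cells 0.434% did, and without thinning the 4 shares were 35.0, 0, 7.60 and 1.10%. By library the thinned shares of migratory cells were 19.8, 24.7, 20.7, 21.3 and 0%, and those of cDC1 4.55, 0, 4.05, 0 and 0%. Against cDC1 the log2 difference was 3.36 (SE 0.35, adjusted p = 1.07e-05). It did not pass with cDC1 of matched depth (2.98, adjusted p = 0.0766) or without shared barcodes (2.66, adjusted p = 0.0763). Both settings left fewer cDC1 sums. Matched depth kept those of PDL1 floxed/WT-CD4Cre and PDL1 floxed/floxed, and removing shared barcodes lost that of CD4Cre (9 cells). Il15ra, which presents interleukin-15 to T and NK cells, was at 277, 268, 103, 324 and 109 CPM in migratory cells, 11.4, 18.6, 2.73, 12.5 and 5.54 CPM in cDC2 and 59.3, 2.88, 2.10, 7.27 and 4.01 CPM in cDC1. It rose without overlap by 4.75 against cDC2 (SE 0.46, adjusted p = 1.36e-06) and 3.86 against cDC1 (SE 0.43, adjusted p = 6.09e-06). Ebi3, the partner chain of interleukin-27 and interleukin-35, rose by 1.13 and 1.03 (adjusted p = 0.00131 and 0.00361), the second lost in the 3 CD4Cre libraries alone (0.63, adjusted p = 0.112). Il1b and Tnf passed in neither comparison, with Il1b at 248, 254, 1053, 203 and 635 CPM in migratory cells and 113, 191, 1594, 533 and 430 CPM in cDC2.

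RNA of MHC class I presentation genes was more often higher in migratory cells, and that of MHC class II presentation genes more often lower. Of 14 listed genes of MHC class II presentation 11 were tested: 10 fell and 1 rose against cDC2, and 9 fell and 1 rose against cDC1. All 19 listed genes of MHC class I presentation were tested: 16 rose and 2 fell against cDC2, and 12 rose and 3 fell against cDC1, or 7 and 2 with cDC1 of matched depth. Ciita, the master regulator of class II genes, was at 60.6, 19.4, 12.9, 61 and 0 CPM in migratory cells, 702, 558, 105, 899 and 108 CPM in cDC2 and 445, 458, 104, 531 and 70.8 CPM in cDC1 (log2 differences -3.71, SE 0.25, adjusted p = 2.23e-09, and -3.45, SE 0.26, adjusted p = 7.61e-09). H2-DMb1, which helps load peptides on class II, was at 39.9, 31.1, 79.8, 36.8 and 81.7 CPM in migratory cells against 670 to 952 CPM in cDC2 (log2 difference -3.99, SE 0.23, adjusted p = 2.36e-10). March1, the ligase that removes class II from the surface, was at 5.16, 1.09, 0, 3.81 and 9.07 CPM in migratory cells against 46.4 to 132 CPM in cDC2 (log2 difference -4.94, SE 0.34, adjusted p = 9.82e-10), and neither gene overlapped. Since March1 acts against class II, the counts of this list describe RNA and not the strength of presentation. H2-Aa, a class II chain, was at 1982, 1032, 5201, 1793 and 7903 CPM in migratory cells and 6668, 6164, 12820, 7500 and 14232 CPM in cDC2. It was lower in migratory cells within each library, while the PDL1 floxed/floxed and WT values of both classes were high (log2 difference -1.50, SE 0.20, adjusted p = 1.87e-05). Lgmn, an endosomal protease, was the gene that rose (0.74, adjusted p = 0.00574, and 1.66, adjusted p = 7.91e-06). The comparators had to pass a class II term, which 588 of the 739 migratory cells also pass, and with these 588 cells the counts of the class II list were again 10 lower and 1 higher against cDC2 and 9 lower and 1 higher against cDC1.

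On the class I side, H2-Q7, a non-classical class I gene whose reads can be shared with near-identical copies, was at 824, 791, 381, 828 and 318 CPM in migratory cells, 65.8, 105, 41, 162 and 63.8 CPM in cDC2 and 204, 133, 75.5, 225 and 114 CPM in cDC1. The classes did not overlap (log2 differences 3.13, SE 0.20, adjusted p = 4.69e-10, and 2.08, SE 0.19, adjusted p = 4.49e-08). B2m, the light chain of class I, was at 4537, 4031, 6609, 4809 and 7631 CPM in migratory cells and 1692, 2049, 2994, 2082 and 3909 CPM in cDC2 (log2 difference 1.32, SE 0.12, adjusted p = 3.66e-08). Psme2, an activator of the proteasome, rose by 2.25 against cDC2 (SE 0.15) and 1.63 against cDC1 (SE 0.14), again without overlap. H2-K1, a classical class I heavy chain, rose by 1.25 and 1.30 (SE 0.12 each). The 2 that fell in both comparisons were the endoplasmic reticulum chaperones Calr and Pdia3, and Psmb9, an immunoproteasome subunit, rose against cDC2 and fell against cDC1.

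Uptake receptors were more often lower than higher in both comparisons, and pattern recognition genes only against cDC2. Of 20 listed uptake receptors 13 were tested, with 2 higher and 10 lower against cDC2 and 1 higher and 7 lower against cDC1 (4 lower without PDL1 floxed/WT-CD4Cre). Mrc1, the mannose receptor, was at 6.20, 5.19, 5.15, 5.93 and 0 CPM in migratory cells against 562, 421, 32.8, 362 and 22.2 CPM in cDC2 (log2 difference -5.86, SE 0.34, adjusted p = 3.4e-10). Clec10a, a galactose lectin, was at 2.41, 2.18, 10.3, 2.12 and 27.2 CPM in migratory cells against 383, 305, 432, 491 and 186 CPM in cDC2 (log2 difference -6.56, SE 0.41). Ly75, the receptor DEC-205, went the other way, at 321, 376, 126, 273 and 90.7 CPM in migratory cells, 3.79, 20.9, 9.56, 8.33 and 2.77 CPM in cDC2 and 111, 57.6, 27.3, 58.1 and 20 CPM in cDC1 (log2 differences 4.94, SE 0.31, and 2.12, SE 0.24). Of 24 listed pattern recognition genes 14 were tested, with 3 higher and 9 lower against cDC2 and 3 higher and 3 lower against cDC1. Myd88, the adaptor of most Toll-like receptors, was at 34.8, 19.1, 20.6, 22.9 and 27.2 CPM in migratory cells against 205, 156, 142, 183 and 108 CPM in cDC2 (log2 difference -2.52, SE 0.22, adjusted p = 1.97e-08). Unc93b1, which carries Toll-like receptors to endosomes, fell by 1.30 against cDC2 and 1.59 against cDC1 (SE 0.15 each). Traf6, a ubiquitin ligase downstream of Myd88, rose by 2.06 (SE 0.29) and 2.61 (SE 0.33), as did Ly96, the partner of Tlr4 (2.47 and 3.24). Clec7a, Ifi30 and Mx2, named in these and the interferon lists, were not analysed here.

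Genes of the cytoskeleton changed in both directions. Of 24 listed 23 were tested, with 9 higher and 7 lower against cDC2 (4 lower without PDL1 floxed/WT-CD4Cre) and 9 higher and 6 lower against cDC1. Marcks, which crosslinks actin at the membrane, was at 1252, 1061, 592, 1175 and 753 CPM in migratory cells, 269, 219, 120, 183 and 139 CPM in cDC2 and 512, 380, 171, 429 and 247 CPM in cDC1 (log2 differences 2.56, SE 0.13, adjusted p = 3.63e-11, and 1.53, SE 0.13, adjusted p = 1.4e-08). Myo1g, a membrane myosin, was at 555, 504, 553, 489 and 463 CPM in migratory cells against 79.1 to 130 CPM in cDC2 and 36.3 to 107 CPM in cDC1 (log2 differences 2.49, SE 0.16, and 2.81, SE 0.17). Both stood apart from the other classes in all libraries. Integrin genes fell: Itgb7 was at 20, 22.1, 7.72, 18.6 and 0 CPM in migratory cells against 187 to 250 CPM in cDC2 (log2 difference -3.30, SE 0.23), and Itgae, its partner on cDC1, fell by 5.79 against cDC1 (SE 0.68, adjusted p = 7.63e-05).

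Interferon genes were mixed, while those of the interleukin-4 and STAT6 response were more often higher. Of 20 listed type I interferon genes 14 were tested, with 3 higher and 6 lower against cDC2 and 5 higher and 1 lower against cDC1 (3 higher without PDL1 floxed/floxed and 8 without WT). Of 18 interferon gamma genes 17 were tested, with 8 higher and 4 lower against cDC2 and 7 higher and 6 lower against cDC1. Ifngr1, the ligand-binding chain of the interferon gamma receptor, was at 54.4, 48.1, 74.6, 41.5 and 127 CPM in migratory cells against 392, 437, 442, 362 and 466 CPM in cDC2 (log2 difference -2.60, SE 0.15, adjusted p = 1.3e-10). Jak2, a kinase of the same receptor, rose by 1.67 against cDC2 (SE 0.16) and 1.08 against cDC1 (SE 0.16). Of 12 interleukin-4 and STAT6 genes 11 were tested, with 5 higher and 1 lower against cDC2 and 8 higher and none lower against cDC1. Il2ra, the alpha chain of the interleukin-2 receptor, was at 95.7, 110, 36.0, 73.3 and 72.6 CPM in migratory cells against 0 to 2.33 CPM in cDC2 and 0 to 1.98 CPM in cDC1 (log2 differences 6.57, SE 0.47, and 5.93, SE 0.46). Il2rg, its signalling chain, passed against cDC1 (2.63, adjusted p = 1.23e-07) and not against cDC2 (-0.14, adjusted p = 0.577).

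Metabolic genes included more that fell than rose on the glycolytic side. Of 20 listed genes of glycolysis and hypoxia 19 were tested, with 3 higher and 8 lower against cDC2 and 2 higher and 10 lower against cDC1. Against cDC1 6 were lower without PDL1 floxed/floxed-CD4Cre and 3 with cDC1 of matched depth. Hk2, an inducible hexokinase, was at 20, 45.1, 20.6, 30.1 and 18.1 CPM in migratory cells against 129, 109, 84.7, 237 and 52.7 CPM in cDC2 (log2 difference -2.15, SE 0.29, adjusted p = 1.05e-05), and Ldha, which makes lactate, fell by 1.06 against cDC2 (SE 0.17) and 1.70 against cDC1 (SE 0.17). Of 20 cholesterol genes 17 were tested, with 7 higher and 2 lower against cDC2 and 4 higher and 3 lower against cDC1, and Soat1, which esterifies cholesterol, fell by 1.47 and 1.32. Without PDL1 floxed/floxed-CD4Cre the cholesterol list had 3 higher against cDC2.

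Survival genes were mostly higher, and more cycling genes passed as lower against cDC1 than against cDC2. Of 18 listed survival and death genes 17 were tested, with 11 higher and 3 lower against cDC2 and 11 higher and none lower against cDC1. Birc2, an inhibitor of apoptosis, was at 533, 471, 106, 393 and 218 CPM in migratory cells against 30.4, 44.2, 21.9, 37.5 and 11.1 CPM in cDC2 (log2 difference 3.70, SE 0.30, adjusted p = 2.41e-08). Bcl2a1d, whose reads can be shared with near-identical copies, rose by 2.23 against cDC2 (SE 0.22) and 1.24 against cDC1 (SE 0.22). Of 20 cell cycle genes 16 were tested, with 2 higher and 1 lower against cDC2 and 0 higher and 11 lower against cDC1. Against cDC2 4 were lower without PDL1 floxed/WT-CD4Cre and 3 without PDL1 floxed/floxed or without CD4Cre. Mki67, a marker of cycling cells, was at 16.9, 13.4, 2.57, 18.2 and 0 CPM in migratory cells, 16.4, 105, 8.19, 33.3 and 13.9 CPM in cDC2 and 247, 60.5, 15.4, 843 and 64.2 CPM in cDC1. It did not pass against cDC2 (log2 difference -1.57, adjusted p = 0.151) and fell by 4.08 against cDC1 (SE 0.73, adjusted p = 0.00135). With cDC1 of matched depth Mki67 did not pass and the list had 1 higher and 0 lower of 11 tested. That setting kept cDC1 sums in PDL1 floxed/WT-CD4Cre and PDL1 floxed/floxed only.

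**Figure D3:**
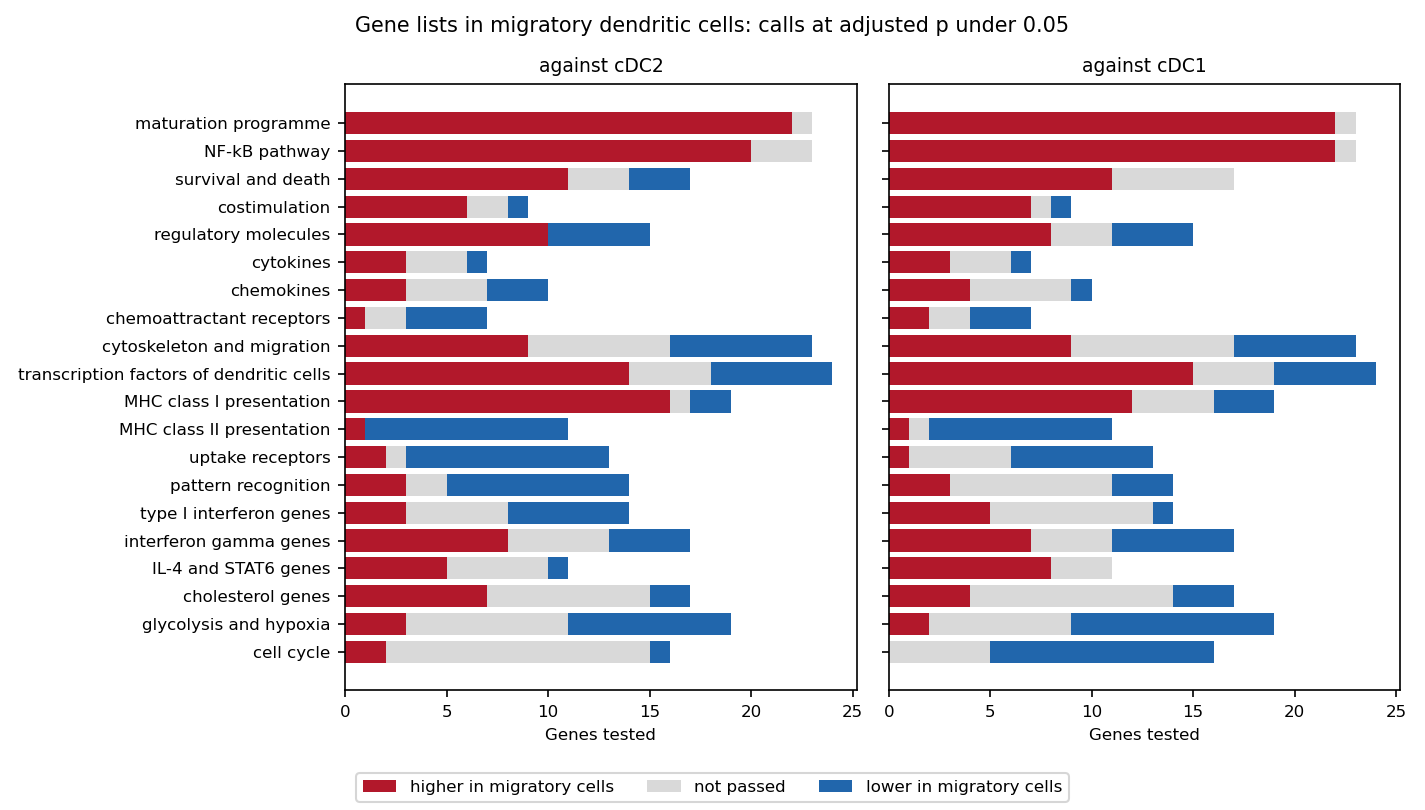
Number of tested genes in each of 20 lists that were higher in migratory cells (red), did not pass (grey) or were lower (blue), against cDC2 (left) and cDC1 (right), at an adjusted p under 0.05. The NF-kB list has 20 and 22 genes higher and none lower, the MHC class II list 10 and 9 lower.

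Outside the lists, genes were named by the size of the change in both comparisons, among 639 that were higher and 483 that were lower in all libraries. Car2, a carbonic anhydrase, was at 110, 136, 453, 89.8 and 272 CPM in migratory cells, 0 to 12.5 CPM in cDC2 and 0 to 6.99 CPM in cDC1 (log2 differences 6.11, SE 0.40, and 6.16, SE 0.40). Ramp3, which pairs with receptors of calcitonin-family peptides, was at 558, 574, 685, 588 and 744 CPM in migratory cells, 2.77 to 29.1 CPM in cDC2 and 0 to 35.6 CPM in cDC1 (log2 differences 5.30, SE 0.48, and 6.17, SE 0.53). Mir155hg, the host gene of the microRNA miR-155, was at 83.0, 95.9, 92.6, 66.9 and 72.6 CPM in migratory cells, 0 to 12.5 CPM in cDC2 and 0 to 3.96 CPM in cDC1. The same rule named H2-M2, Il2ra, Ccl5, Tnfrsf4 and Nudt17. On the lower side it named Ckb, the brain-type creatine kinase, at 8.61, 8.74, 15.4, 9.74 and 0 CPM in migratory cells against 250 to 580 CPM in cDC2 and 494 to 1123 CPM in cDC1 (log2 differences -4.97, SE 0.20, adjusted p = 3.07e-12, and -6.04, SE 0.21, adjusted p = 2.12e-13). Kmo, which breaks down kynurenine, was at 5.51, 5.46, 2.57, 7.62 and 0 CPM in migratory cells against 142 to 387 CPM in cDC2 and 60.1 to 134 CPM in cDC1 (log2 differences -5.17, SE 0.23, and -4.46, SE 0.24). The others were Ear2, March1, Unc119, Ifitm6, Clec10a and Naaa, the last also a marker of cDC1.

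Migratory cells were not uniform among themselves. Per 10000 UMIs the middle of Ccl5 was at 35.8, 40.8, 28.3, 44.2 and 28.6, and the 10th and 90th percentiles in PDL1 floxed/floxed-CD4Cre were 2.93 and 141. Ccl17 had no UMI in 95 of 212, 124 of 273, 1 of 29, 114 of 215 and 1 of 10 cells. Samsn1 was more even, with 10th and 90th percentiles of 4.91 and 22.1 in PDL1 floxed/floxed-CD4Cre.

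Il12b was found in a subset, and the cells with an Il12b UMI were set beside those without in the 4 libraries with more than 1 such cell. They were 78 and 134 cells in PDL1 floxed/floxed-CD4Cre, 109 and 164 in PDL1 floxed/WT-CD4Cre, 7 and 22 in PDL1 floxed/floxed and 64 and 151 in CD4Cre. The split uses a measured gene and the cells with an Il12b UMI were somewhat deeper (median UMIs 14156 and 13000, 14150 and 11401, 13708 and 13448, 11304.5 and 9645), so the values are a description without a test. Irf8 was at 1074, 1582, 2115 and 949 CPM in cells with an Il12b UMI and at 638, 1020, 440 and 440 CPM in those without. Serpinb6b, a protease inhibitor, was at 2022, 1803, 2275 and 1368 CPM with and at 1222, 1058, 1131 and 927 CPM without an Il12b UMI. Both genes were higher in the cells with Il12b in each of the 4 libraries, and so were Il15ra and Cd80. The cDC2 lectin Mgl2 was at 2.50, 3.08, 9.98 and 2.52 CPM in cells with an Il12b UMI and at 79.7, 49.5, 198 and 41.5 CPM in those without. Sirpa, another cDC2 marker, was at 21.7, 3.70, 9.98 and 25.2 CPM with and at 59.8, 26.5, 65.9 and 47.2 CPM without, and Il1b was also lower in cells with an Il12b UMI in each library. Relb showed no common direction, at 450, 417, 499 and 523 CPM with and 525, 421, 461 and 657 CPM without, nor did Ccl17.

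**Figure D4:**
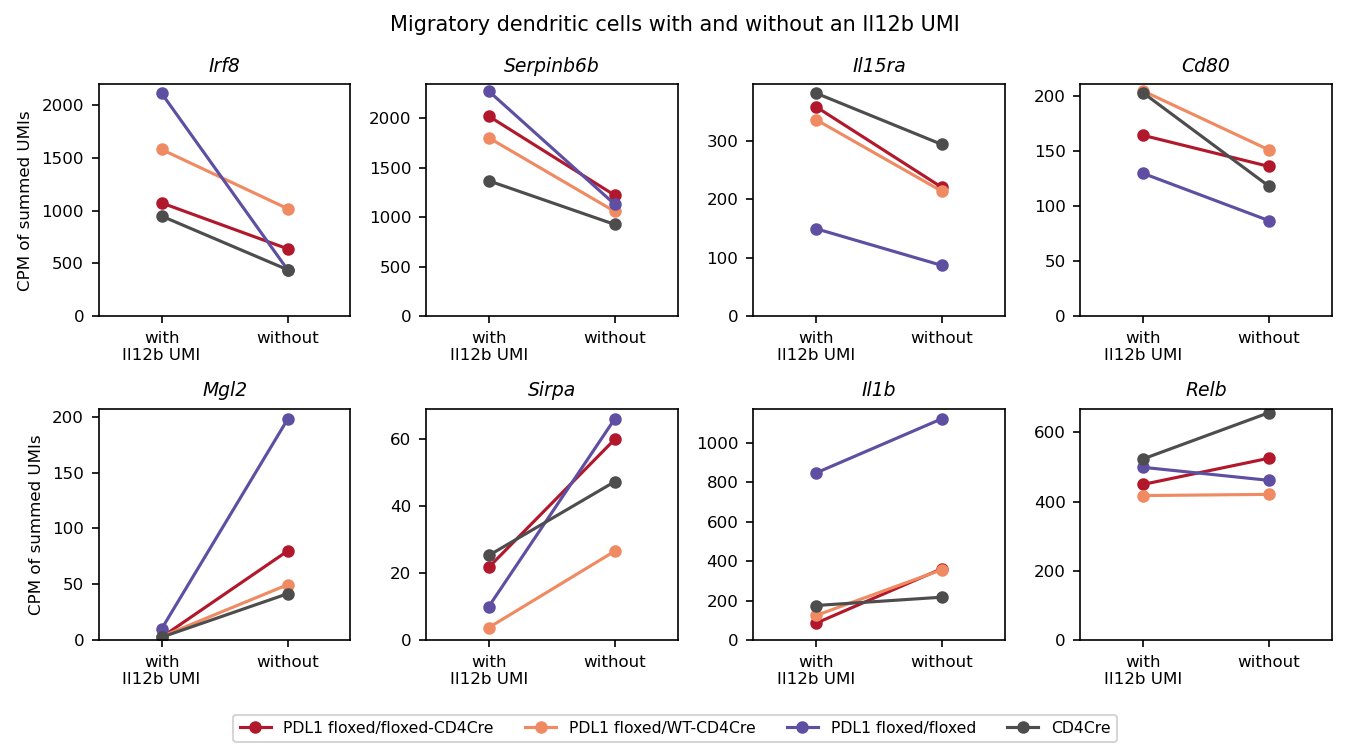
Summed level (CPM) of 8 genes in migratory dendritic cells with (left) and without (right) an Il12b UMI, with 1 line for each of the 4 libraries that hold more than 1 cell with an Il12b UMI. Irf8, Serpinb6b, Il15ra and Cd80 are higher, and Mgl2, Sirpa and Il1b lower, in cells with an Il12b UMI in all 4 libraries, and Relb goes both ways.

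The comparison closest to the series' question sets migratory cells of PDL1 floxed/floxed-CD4Cre (212 cells) beside those of CD4Cre (215 cells), 2 libraries of the same file version. With 1 library per genotype there is no test, and genes were counted by size. Among 2941 genes with at least 50 CPM in 1 of the 2 libraries, 11 (0.374%) were at least 2-fold higher and 8 (0.272%) at least 2-fold lower in PDL1 floxed/floxed-CD4Cre, together 0.646%. The median log2 difference was 0.05. None of 26 maturation genes, 22 NF-kB genes, 18 MHC class I genes or 8 MHC class II genes at that level was 2-fold apart. Of the costimulatory genes Cd40 and Tnfsf9 were. Cd40 was at 169 CPM in PDL1 floxed/floxed-CD4Cre (Poisson interval 155 to 185) and at 78.8 CPM in CD4Cre (67.9 to 90.9). In PDL1 floxed/WT-CD4Cre it was at 157 CPM, in PDL1 floxed/floxed at 172 CPM and in WT at 109 CPM, so the CD4Cre library was the low one. Pgk1, a glycolytic enzyme, was at 250 CPM in PDL1 floxed/floxed-CD4Cre and at 123 CPM in CD4Cre, and PDL1 floxed/WT-CD4Cre stood higher, at 409 CPM. Cd274 was at 404 CPM in PDL1 floxed/floxed-CD4Cre and at 322 CPM in CD4Cre, a log2 difference of 0.33.

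By a rule that also asked for a level outside the range of the other 4 libraries, 5 genes were named as higher and 2 as lower in PDL1 floxed/floxed-CD4Cre. Tnfsf9, the ligand of 4-1BB, was at 58.5 CPM in PDL1 floxed/floxed-CD4Cre (50.1 to 68.0) and at 25.4 CPM in CD4Cre (19.4 to 32.7), with PDL1 floxed/WT-CD4Cre, PDL1 floxed/floxed and WT at 39.3, 41.2 and 27.2 CPM. Pi4k2b, a lipid kinase, was at 57.1 CPM (48.8 to 66.5) in PDL1 floxed/floxed-CD4Cre and 24.6 CPM (18.7 to 31.8) in CD4Cre. Fn1, which encodes fibronectin and is in the monocyte marker list with Chil3, was at 69.9 CPM (60.6 to 80.2) in PDL1 floxed/floxed-CD4Cre and 31.3 CPM (24.6 to 39.3) in CD4Cre. These 3 stayed higher without the cell that holds most UMIs of the gene in each library, at 44 and 22.6 CPM for Tnfsf9, 54.1 and 23 CPM for Pi4k2b and 57.2 and 27.7 CPM for Fn1. Tnfsf9 then missed the 50 CPM and, narrowly, the 2-fold difference that the rule asked for. The other 4 rest on few cells. Krt8, an epithelial keratin, was at 67.1 CPM in PDL1 floxed/floxed-CD4Cre and 31.8 CPM in CD4Cre, with 91.3% of the UMIs of PDL1 floxed/floxed-CD4Cre in 1 cell, and stood at 5.96 and 8.21 CPM without the top cells. Chil3, a chitinase-like gene of myeloid cells, was at 55.1 CPM in PDL1 floxed/floxed-CD4Cre, where 5 cells held it and 55% of UMIs came from 1 cell, and at 13.6 CPM in CD4Cre, or 25.1 and 5.96 CPM without the top cells. Its log2 difference of 2.02 was 0.11 without high doublet scores and 0.10 without shared barcodes. Cxcl2 was at 11 CPM in PDL1 floxed/floxed-CD4Cre and 98.7 CPM in CD4Cre, with 92.7% of the CD4Cre UMIs in 1 cell, and at 7.28 and 7.27 CPM without the top cells. S100a9, a neutrophil alarmin, was at 6.20 CPM in PDL1 floxed/floxed-CD4Cre and 52.9 CPM in CD4Cre, with 76.8% of the CD4Cre UMIs in 1 cell, and at 5.54 and 12.4 CPM without.

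**Figure D5:**
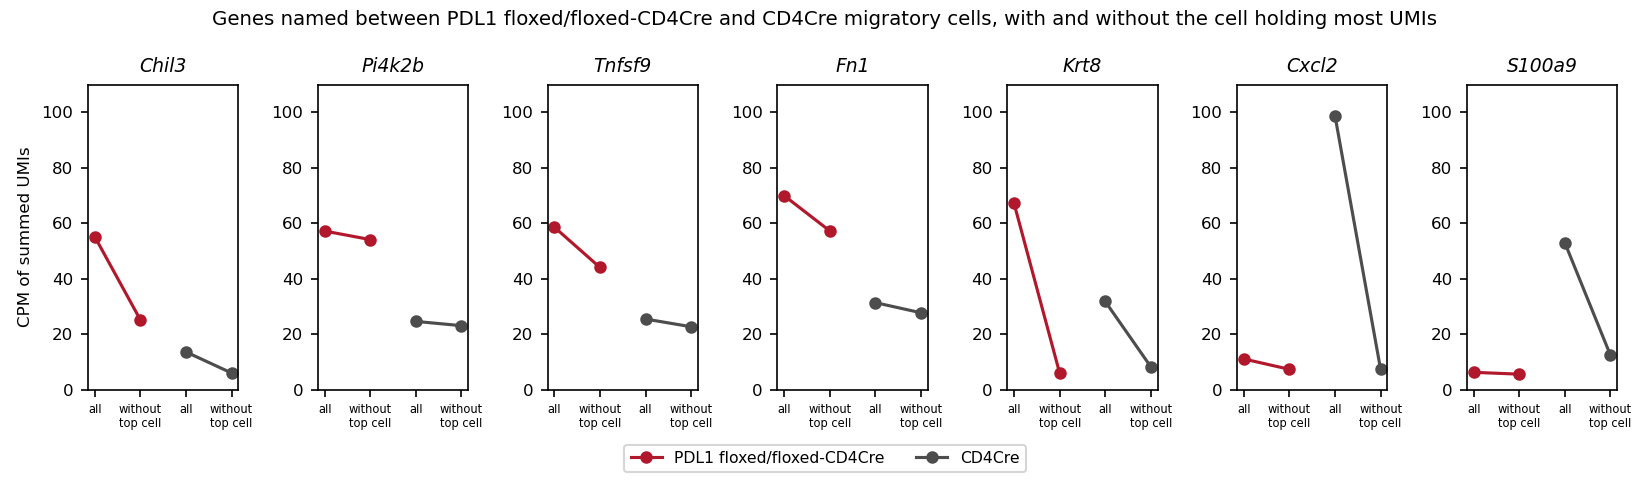
Summed level (CPM) of the 7 genes named between PDL1 floxed/floxed-CD4Cre (red, left in each panel) and CD4Cre (grey, right) migratory cells, with all cells and without the 1 cell in each library that holds most UMIs of the gene. The red points of Pi4k2b, Tnfsf9 and Fn1 stay above the grey ones, while Krt8 and Cxcl2 come close together once the top cell is left out.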

How the data were processed

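The deposited UMI counts per gene and barcode of 5 single-cell libraries were used. Alignment to mm10 with Cell Ranger is given per the submitters' processing notes, and version 3.1.0 stands in the headers of 3 matrices per the file headers. For other tools no version is given in the sources used here. Groups follow the labels, from which the file names of WT and PDL1 floxed/WT-CD4Cre differ.

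The members and gene lists were chosen with earlier results of these data known. UMIs were summed per library and class (at least 10 cells) and tested with edgeR 4.0.16 (R 4.3.3), quasi-likelihood, trimmed mean normalization and the library as a block, since classes of 1 library come from the same cell suspension. Genes were called at an adjusted p under 0.05. Between genotypes CPM is given with 95% Poisson intervals and no test. Shares of cells were thinned to 3000 UMIs and, where 1 value stands for a class, pooled over the libraries. Doublet scores (scanpy 1.11.5, Scrublet at 0.8% per 1000 barcodes) removed no cell in the values given first and served as an alternative.

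Named genes were the 4 with the smallest p in each list at 50 CPM or more, the 8 largest log2 differences each way past the threshold in both comparisons with 1 sign in all libraries, and between genotypes the 5 largest each way at 50 CPM and 2-fold with intervals apart and outside the range of the other 4 libraries. Gene models and ribosomal and mitochondrial genes were not named. Some further list members, such as Il1b, Ccl17, Tnf, Mki67, Cd48 and Lgmn, were named after their values were seen. On simulated counts for 5662 genes, the test recovered 61.4% of 2-fold and 100% of 4-fold changes against cDC2, with 6 false calls. The simulation changed few genes and gave libraries no differences other than depth. It therefore does not show how the test does on these data. 1 gene of the chemoattractant receptor list is not reported here.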

Additional observations from a re-analysis of the deposited data

Results flagged for a closer look

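For 188 pairs of a named gene and a comparator, the log2(CPM + 1) difference between migratory cells and the comparator was computed in each of the 5 libraries, and 10 had 1 library far from the other 4. Chance alone gives about 1 in 20. In WT, with 10 migratory cells, the difference of Ckb was -9.71 against cDC1 (others -6.14 to -5.69) and -8.90 against cDC2 (others -5.18 to -4.55), and that of Kmo was -7.21 against cDC2 (others -5.49 to -4.96). Both genes had no UMI in the WT migratory cells. Also in WT, Il12b differed by 4.26 against cDC2 (others 7.58 to 7.90), Irf8 by -2.12 against cDC1 (others -1.31 to -1.09), Ikzf1 by -2.12 against cDC1 (others -0.68 to -0.36) and Ifngr1 by -1.33 against cDC1 (others -2.05 to -1.84). In PDL1 floxed/floxed-CD4Cre, Mir155hg differed by 4.08 against cDC1 (others 6.09 to 6.60), where that library was the only one with Mir155hg UMIs in cDC1. In PDL1 floxed/floxed, Relb differed by 2.63 against cDC2 (others 3.18 to 3.37), and in PDL1 floxed/WT-CD4Cre, Unc93b1 by -1.96 against cDC2 (others -1.44 to -1.24). In each pair the sign was the same in all 5 libraries.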

How the results depend on the processing

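Without the replicate block, which pairs classes of the same library, 1841 genes passed against cDC2 and 1881 against cDC1, and the MHC class II list had 0 higher and 9 lower against cDC2 and 1 and 5 against cDC1. Leaving out 1 library at a time gave 2203 to 3293 genes against cDC2 and 2246 to 3050 against cDC1. With cDC1 of matched depth 1642 genes passed. There 3 sums were left out for too few cells, those of cDC1 in PDL1 floxed/floxed-CD4Cre, CD4Cre and WT. The overall share of migratory cells was 4.50% with a gate of 1 UMI, 3.68% from barcodes with 200 genes, 4.64% at 5% mitochondrial UMIs and 4.82% without shared barcodes. In PDL1 floxed/floxed-CD4Cre it was 6.53% at 5% mitochondrial UMIs and 7.81% without shared barcodes. In PDL1 floxed/WT-CD4Cre it was 8.39, 6.09, 9.11 and 11.4% under the 4 settings named for the overall share. In CD4Cre it was 5.61% at 5% mitochondrial UMIs and 5.11% without shared barcodes. With C1q under 5 UMIs it was 0.489% in PDL1 floxed/floxed and 0.139% in WT. Between genotypes 31 genes were 2-fold apart with a gate of 1 UMI. Cxcl2 turned to a log2 difference of 0.88 without high doublet scores and 0.69 without shared barcodes, and Krt8 to -2.63 at 5% mitochondrial UMIs and -0.37 without shared barcodes. Against cDC1, Ccl6 turned to 0.0107 with a gate of 1 UMI and 0.0117 in the CD4Cre libraries alone. Mrc1, which passed under none of these, turned to 0.30 with DESeq2, 0.75 without the block, -0.58 to 0.0905 with 1 library left out, 0.14 with a gate of 1 UMI, 0.49 with C1q under 5, 4.48 at matched depth and 0.36 in the CD4Cre libraries alone. The cause was not tested. Of 3368 values of named genes under these alternatives 3270 kept their direction and side of the threshold. The 10 cells of WT and 29 of PDL1 floxed/floxed limit the precision there.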
